A study of Gallus gallus with 13 samples.

Results

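Contact inhibition is the arrest of normal cells that have covered their growth surface. Contact-inhibited chicken embryo fibroblasts were compared here with the same kind of cells in active growth, both in medium with serum. Arrays were assigned by their labels, and the comparison used 7 of the 13 arrays of the study: 4 of contact-inhibited and 3 of cycling cultures. All cells were primary fibroblasts from White Leghorn embryos at day 10, kept for fewer than 10 passages, and the labels name no genetic change. Both groups grew at 41.5 °C in a medium that contained insulin and zinc, with 5% calf serum and 5% tryptose phosphate broth. Cycling cultures were harvested in log-phase growth. Contact-inhibited cultures had reached 100% confluence and then received fresh medium, a step meant to keep them from starving, and the time they spent at confluence is not given in the sources used here. The other 6 arrays came from serum-starved sparse cultures (3 arrays) and from confluent cultures deprived of serum (3 arrays). They helped to estimate the spread between replicates, and their levels are given where they bear on a gene. The arrays of a group are called biological replicates, but whether they came from separate embryos is not stated, and the spread that the p-values rest on may therefore be technical.

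Fibroblasts are the connective tissue cells that lay down collagen and other fibres. In a full dish normal fibroblasts leave the cell cycle before DNA synthesis and enter quiescence, a state they can leave again when space is made. Serum is still supplied, and the stop signal is held to come from contact with neighbours. Growth factors left in the medium were not measured here. Inhibitors of cyclin-dependent kinases, RB-family proteins that silence E2F target genes, and the kinases LATS1 and LATS2, which keep the growth coactivator YAP out of the nucleus, are the best known parts of this arrest. Growing cells, by contrast, spend much of their effort on ribosomes, chaperones and building blocks for DNA.

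The deposited values are probe set signals on a linear scale. Level below means this signal, and values of single arrays are listed in the order of replicates 1 to 3 for cycling and 1 to 4 for contact-inhibited cells. A change is the difference between the group means of log2(signal + 16), contact-inhibited minus cycling, given with its standard error after the sign ±. On this scale the change of a dim gene is understated. A probe set was called when its adjusted p from limma was under 0.05, and a gene was represented by its tested probe set of highest mean level. With all tested probe sets of a gene averaged instead, the change moved by over 1.5 times for 40 of the 226 called genes named here, as the closing section sets out. The words rose and fell are used only for called genes. The signal also depends on the probe set itself, so bright and dim describe the signal of a probe set and not the abundance of its transcript.

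Over the tested probe sets, arrays of the same group correlated at 0.941 to 0.991, and contact-inhibited with cycling arrays at 0.869 to 0.937. A pair of arrays stood apart from their own group. Contact-inhibited replicate 1 differed by at least 2-fold from the mean of the other contact-inhibited arrays at 1033 probe sets, against 45 to 100 for each of replicates 2 to 4. Its mean log2 level over 22 probe sets of genes on W, the chromosome of female birds, was 6.28; the lowest and highest of the other 6 arrays had 7.07 and 7.3. Cycling replicate 3 differed by at least 2-fold from the mean of the other cycling arrays at 2753 probe sets, against 499 and 872 for replicates 1 and 2. Its median signal was 52.1 and its actin 3'/5' signal ratio 2.41, while the other 6 arrays had medians of 62.3 to 68.9 and ratios of 1.27 to 1.7. Where leaving out either array moved a printed change or count of at least 4 by over 1.5 times, this is said. The same holds for printed list medians of at least 0.25 in size, and smaller medians could move further without mention. Of the called genes named here, 3 lost the call without contact-inhibited replicate 1 and 4 without cycling replicate 3. Of the latter only XRCC5 and LATS2 are marked as such below.

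Confluent cells had lower levels of many genes for making ribosomes, folding proteins and copying DNA, and higher levels of many lysosomal genes, collagens and genes of the hypoxia response. The most reduced gene was DKK4, a secreted Wnt antagonist, and the most raised FAM180A, a gene of little known function. Of 11501 tested genes, 2149 rose (18.7%) and 2517 fell (21.9%), and the median change over all of them was 0.02. By at least 2-fold, 616 rose (5.36%) and 824 fell (7.16%). These shares are the background against which the gene groups below are to be read. Without contact-inhibited replicate 1 they were 19.8% and 22.4%, and without cycling replicate 3 16.6% and 21.2%. The values of the groups did not overlap for 20.5% of genes in the upward and 23.1% in the downward direction. Many genes named below were chosen among called genes without such overlap, so its absence in them is not a finding. Over probe sets, 5318 (18.8%) of 28270 were called higher and 4513 (16%) lower, 5.63% and 5.21% by at least 2-fold, so 54.1% of calls were higher. With each array centred on its median this share was 41.6%, and the median over all probe sets went from 0.07 to -0.05. After quantile normalization the share was 49.6% and the median 0.0036. The overall balance of calls is therefore not settled by these data.

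**Figure D1:**
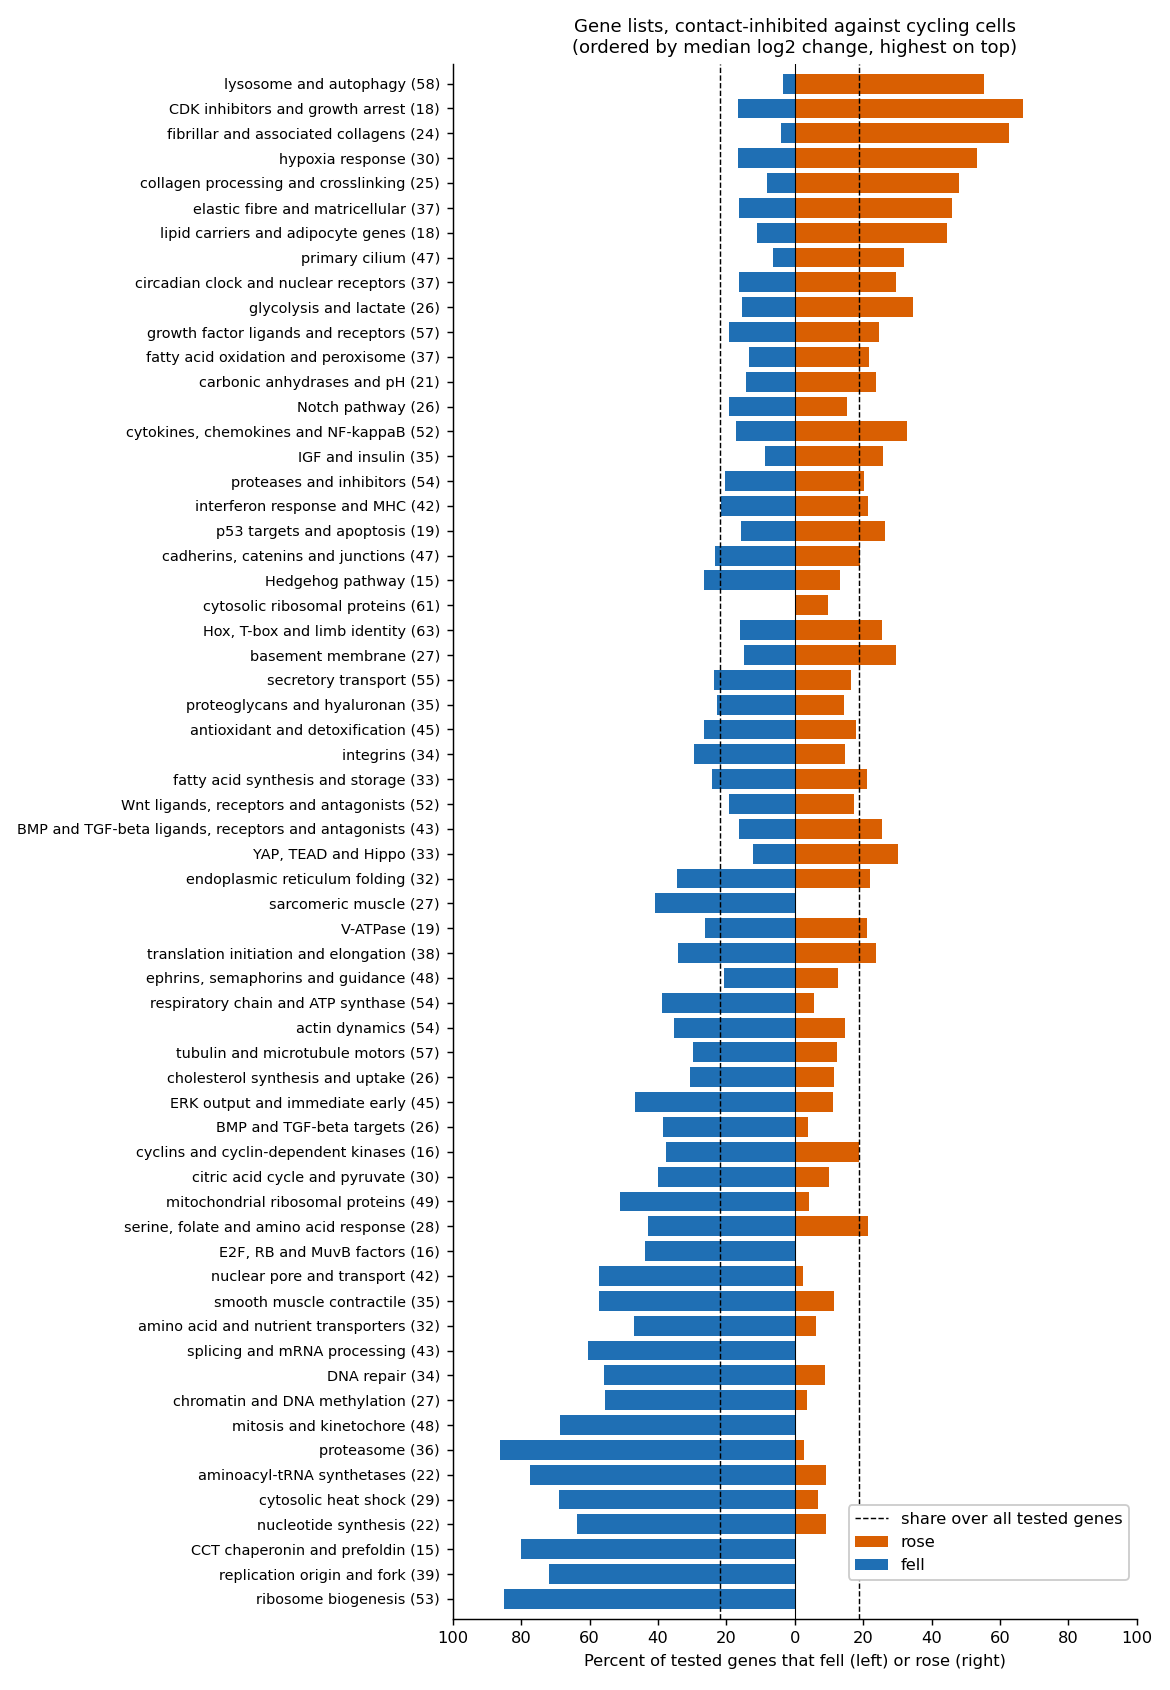
Percent of the tested genes of 62 gene lists that rose (right, orange) or fell (left, blue) in contact-inhibited against cycling cells, ordered by the median log2 change, with the number of tested genes after each name. Dashed lines mark the shares over all tested genes, 18.7% and 21.9%. Ribosome biogenesis stands at the low end and lysosome and autophagy at the high end.

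Both groups carried the markers of fibroblasts. All 13 fibroblast markers were on the array, their summed signal was 99379.9 to 108879 in cycling and 107877 to 117714 in contact-inhibited arrays, and 4 rose and 1 fell. COL1A1 had means of 15107 in cycling and 16980.2 in contact-inhibited cells, VIM 14503 and 14625, and PDGFRA 40.5 and 47.1. Summed signals of the markers of muscle stem and muscle cells reached at most 163 in cycling and 156 in contact-inhibited arrays, those of endothelium 326 and 359, those of red cells 367 and 359, and those of nerve and pigment cells 284 and 257. Blood and macrophage markers summed to 513 to 654 in cycling and 713 to 822 in contact-inhibited arrays, with 2 of 6 raised. The defining markers EPCAM and CDH1 of epithelium, CDH5 of endothelium and PAX7 of muscle stem cells lay under the filter of 22.7, the mean signal a probe set had to reach to be tested.

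The epithelial marker KRT14 and, on its brightest probe set, the cartilage marker COL2A1 were bright in cycling cells and several-fold lower at confluence. KRT14, a keratin of basal epidermis, had signals of 815, 934 and 1288 in cycling arrays. In contact-inhibited arrays it had 13.8, 97.7, 90 and 73.9, so the groups did not overlap. The other tested epithelial marker, KRT5, had means of 131 and 122. COL2A1, the main collagen of cartilage, had 9889.8, 9956 and 11111 in cycling and 904, 848, 981 and 817 in contact-inhibited arrays on its brightest probe set. Of its 5 tested probe sets, 1 was called higher and 1 lower, so the direction of this gene depends on the probe set. Of the 5 tested cartilage markers 2 rose, ACAN and COL9A1. COL9A1, a chain of collagen IX, had 75.3, 55.9 and 40.9 in cycling and 116, 115, 106 and 93.2 in contact-inhibited arrays, so its groups did not overlap either. MATN1 and SOX9 were not called. Whether a change in the mixture of cells contributes to these values was not tested, and in bulk RNA fewer cells of a type and less RNA per cell cannot be told apart.

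Most calls did not depend on contact-inhibited replicate 1. Of 9831 called probe sets, 8890 (90.4%) kept call and direction when it was left out. A further 916 lost the call, 25 were no longer tested, 0 turned, and 1089 were called only without it. Of the 3067 calls of at least 2-fold, 3014 (98.3%) were kept. Fewest calls were kept without cycling replicate 3, 7936 (80.7%), with 77.1% of the higher and 85% of the lower ones. Without cycling replicates 1 and 2 in turn 8337 and 8217 were kept. Without contact-inhibited replicates 2, 3 and 4 in turn 8214, 8347 and 8624 were kept. Each of these fits also has fewer arrays, and that part of the loss was not separated.

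**Figure D2:**
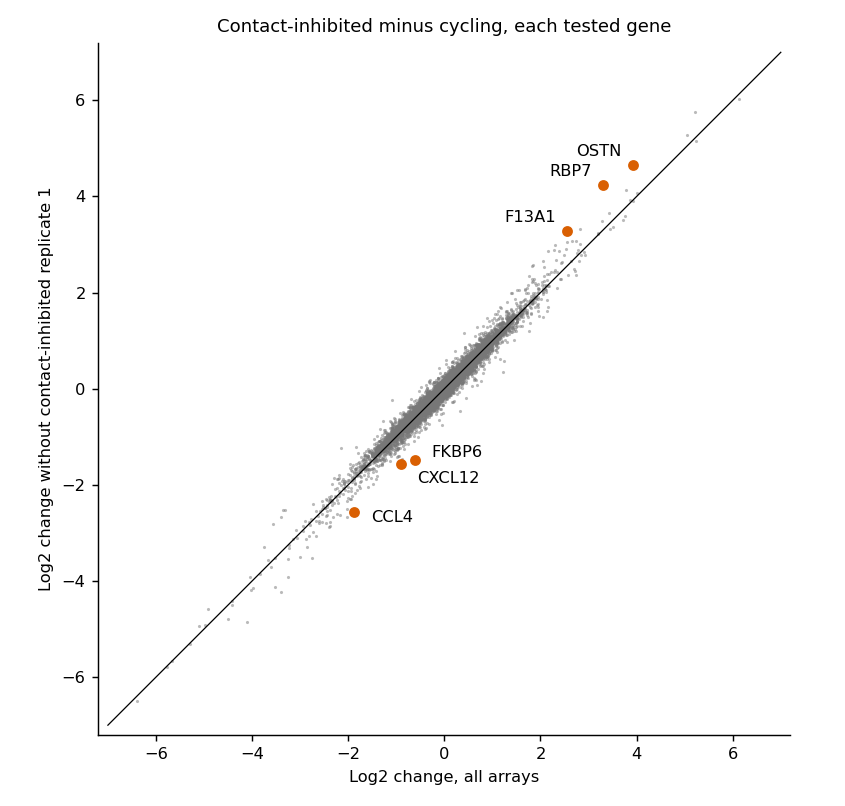
Log2 change of each tested gene with all arrays (horizontal) and without contact-inhibited replicate 1 (vertical), with the line of equality. Most genes lie along the line, and the named genes that leave it, such as RBP7, OSTN, F13A1 and FKBP6, are those at which that array differed from the other contact-inhibited arrays.

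Of the genes that rose most, several were dim in growing cells, such as FAM180A. Others were not, such as C1QTNF3 at a cycling mean of 422. FAM180A had signals of 23.4, 15.8 and 20.9 in cycling arrays and 3136, 2415, 2313 and 2246 in contact-inhibited arrays, a change of 6.13 ± 0.15 (adjusted p = 2.30e-11). EXFABP, a secreted lipocalin that carries fatty acids, had 312, 216 and 205 in cycling and 11657, 9445, 8712 and 9115 in contact-inhibited arrays. CA9, a carbonic anhydrase of the cell surface, had 16.1, 29.8 and 28.1 in cycling and 811, 1668, 1476 and 1491 in contact-inhibited arrays, with replicate 1 the lowest. In each of these the lowest contact-inhibited array lay far above the highest cycling array, but absence of overlap was a condition for naming them. TGM2, a transglutaminase that crosslinks proteins, rose by 3.87 ± 0.11, and its signals of 2927, 3559, 3288 and 3248 in contact-inhibited arrays lay close together. COCH, a secreted protein, had 16.9, 19.5 and 11.8 in cycling and 627, 386, 321 and 345 in contact-inhibited arrays, and ANGPTL5, a secreted angiopoietin-like protein, had 16.6, 12 and 5.52 in cycling and 399, 299.8, 252 and 238 in contact-inhibited arrays. In growing cells both lay under the filter of 22.7. GEM, a small GTPase induced by growth signals and known to inhibit calcium channels, rose by 3.76 ± 0.23, and SPON2, a secreted matrix protein, by 3.78 ± 0.33.

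At the other end, several genes with bright probe sets in cycling cells fell to a small part of their signal. RGS20, a regulator of G protein signalling, had 1477, 1759 and 1481 in cycling and 14.2, 11.3, 13.9 and 13.3 in contact-inhibited arrays, a change of -5.76 ± 0.11 (adjusted p = 2.56e-12). PKP2, a plakophilin of cell junctions, had 762, 742 and 771 in cycling and 5.2, 8.2, 4.95 and 16.8 in contact-inhibited arrays. Neither gene reached 20 in any contact-inhibited array. Both thus lay under the filter of 22.7 there and were tested only through their level in other arrays. SERPINB2, an inhibitor of plasminogen activators, had 2119.7, 1923 and 971 in cycling and 11.2, 53.7, 36.9 and 63.1 in contact-inhibited arrays, and all 4 of its tested probe sets were called lower. MGP, a matrix protein that inhibits calcification, had 4808, 4485 and 4694 in cycling and 357, 164, 137 and 158 in contact-inhibited arrays, with replicate 1 the highest of the contact-inhibited arrays. NES, the intermediate filament protein nestin, and LRRC32, which anchors latent TGF-beta at the cell surface, fell, with changes of -4.02 ± 0.25 and -3.99 ± 0.15. ID1 and ID2, inhibitors of helix-loop-helix factors, fell, with changes of -5.66 ± 0.15 and -4.04 ± 0.16. Absence of overlap between the groups was a condition for naming these genes.

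**Figure D3:**
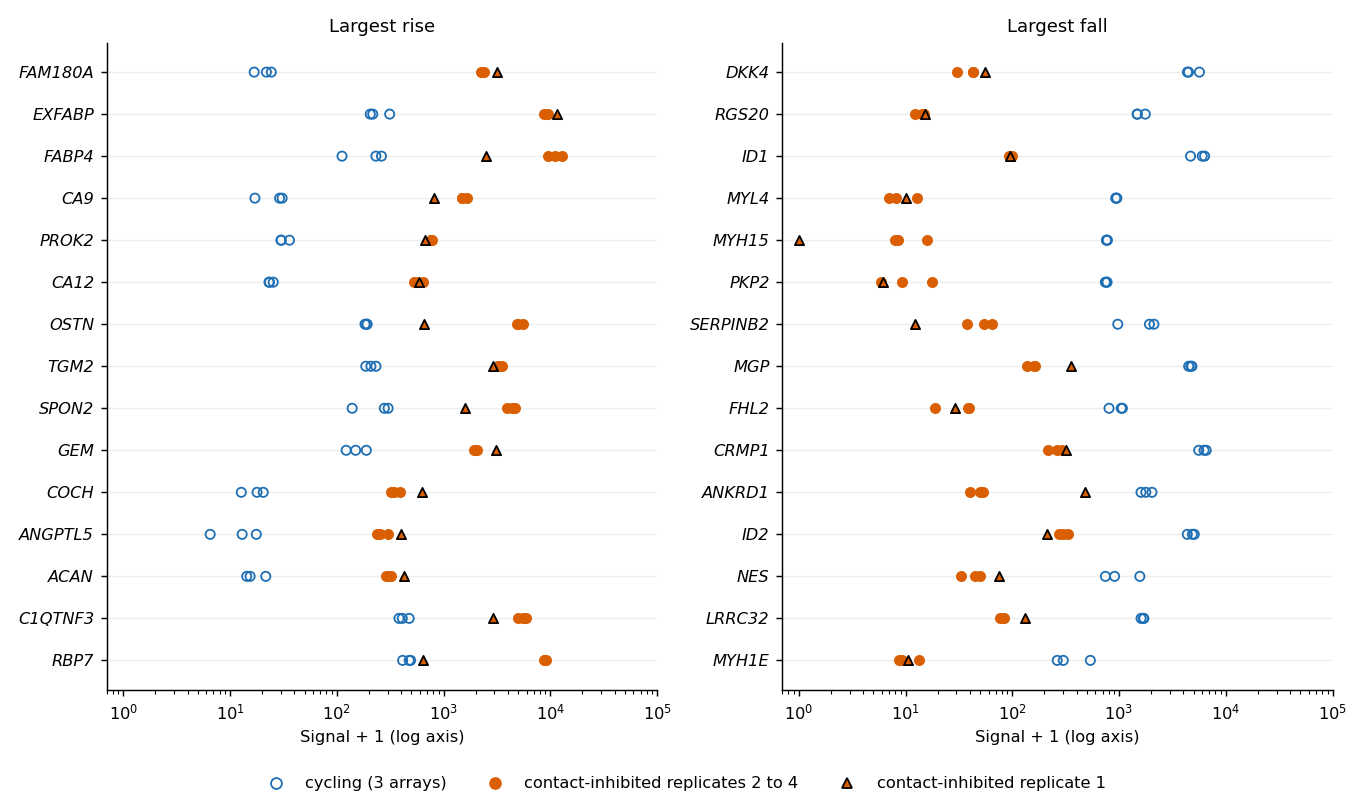
Signal per array on a log axis (with 1 added) for the 15 genes with the largest rise and the 15 with the largest fall among called genes without overlap between the groups. Open circles are cycling arrays, filled circles contact-inhibited replicates 2 to 4 and triangles contact-inhibited replicate 1. At RBP7, OSTN, FABP4 and ANKRD1 the triangle lies well apart from the filled circles.

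Genes whose probe sets were bright in both groups differed from each other in their changes. RPS20 and RPL19, proteins of the ribosome, had means of 17939 and 16236 in cycling and 17345 and 15468 in contact-inhibited cells and were not called. COL1A1, a chain of type I collagen, was not called either (0.15 ± 0.11). FN1, the adhesive matrix protein fibronectin, had 19936, 18874 and 16703 in cycling and 13038, 13357, 14486 and 15002 in contact-inhibited arrays, a change of -0.40 ± 0.07. Its groups did not overlap, and 3 of its 8 tested probe sets were called lower and 0 higher. Its adjusted p was 4.68e-04, but 0.19 after quantile normalization, and averaged over all its probe sets the change was 0.0072, so its size depends on the scaling and on the probe sets used. ACTC1, the actin of heart and embryonic muscle, had 73318, 72167 and 39089 in cycling and 989, 9907, 7447 and 8176 in contact-inhibited arrays. Contact-inhibited replicate 1 was far below the others of its group. ACTB, the main cytoplasmic actin, fell by 0.40 ± 0.06, and SPARC, a collagen-binding glycoprotein, rose by 0.41 ± 0.06.

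Genes for making new ribosomes were mostly lower at confluence, while those for the ribosomal proteins themselves hardly moved. Of 53 tested genes of ribosome biogenesis, 45 fell and 0 rose, with a median change of -1.06. NAT10, an RNA acetyltransferase of the nucleolus, had 677, 781 and 1022 in cycling and 89.2, 144, 139.7 and 178 in contact-inhibited arrays, a change of -2.47 ± 0.21. NOLC1, a phosphoprotein of the nucleolus, had 602, 798 and 884 in cycling and 181, 206, 203 and 204 in contact-inhibited arrays. Neither gene had overlapping groups, which was a condition for naming them. NOP16, a factor of pre-ribosome assembly, changed by -2.08 ± 0.18. Among subunits of RNA polymerase I, which makes ribosomal RNA, POLR1D was not called, and POLR1A, POLR1C and POLR1E changed by -1.08 ± 0.14, -1.21 ± 0.13 and -1.40 ± 0.13. Of 61 cytosolic ribosomal protein genes, by contrast, 0 fell and 6 rose, the median was 0.05, and their changes lay between -0.14 and 0.35. With arrays centred on their median 3 of them fell and 0 rose, and 3 rose when cycling replicate 3 was left out, so no direction can be given for this family. Of the mitochondrial ribosomal protein genes, 25 of 49 fell and 2 rose (median -0.36), with MRPL27 and MRPL19 at -1.17 ± 0.12 and -1.13 ± 0.15.

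Genes for loading tRNAs and for folding and removing proteins were mostly lower as well. Aminoacyl-tRNA synthetases join amino acids to their tRNAs, and 17 of 22 fell and 2 rose (median -0.71). FARSB and YARS, the enzymes for phenylalanine and tyrosine, changed by -1.69 ± 0.15 and -1.59 ± 0.15, and EPRS, for glutamate and proline, by 0.42 ± 0.10 (adjusted p = 0.00433, and 0.0505 with centred arrays). The chaperonin CCT folds actin and tubulin with the help of prefoldin. Of its 15 tested subunits and partners 12 fell and 0 rose (median -0.97, or -0.52 with all tested probe sets of a gene averaged). CCT7 had 4063, 4338 and 4623 in cycling and 1535, 1778, 1537 and 1722 in contact-inhibited arrays, and TCP1, the subunit that gave the complex its name, 8570.0, 8434 and 7979 in cycling and 3378, 4863, 4147 and 4759 in contact-inhibited arrays. All 8 measured subunits of the CCT ring fell, from -0.97 ± 0.13 for TCP1 to -1.46 ± 0.27 for CCT3. Of 57 genes of tubulins and microtubule motors 17 fell and 7 rose (4 with centred arrays). The first counts were 29.8% and 12.3%, next to 21.9% and 18.7% over all genes. TUBA1A fell by 1.45 ± 0.13 and TUBG1, the gamma-tubulin of centrosomes, fell by 1.05 ± 0.13, while the microtubule-binding protein MAP2 rose by 1.33 ± 0.24.

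Cytosolic heat shock chaperones showed the same direction with a pair of exceptions. Of 29 tested, 20 fell and 2 rose. DNAJA4, a cochaperone of HSP70, had 3990.3, 3404 and 3779 in cycling and 850.3, 764, 618 and 683 in contact-inhibited arrays, and CHORDC1, a partner of HSP90, fell by 2.35 ± 0.12. The small heat shock protein HSPB8 fell by 2.52 ± 0.14. FKBP5, a cochaperone of steroid receptors and a known target of glucocorticoids, rose by 1.27 ± 0.12, with 1266, 1239.7 and 1634 in cycling and 3276, 3624, 3258 and 3136 in contact-inhibited arrays. Of 36 proteasome genes 31 fell and 1 rose (median -0.65). PSME3, an activator of the nuclear proteasome, fell by 1.60 ± 0.11 and PSMC5, an ATPase of its cap, fell by 1.44 ± 0.13. Chaperones of the endoplasmic reticulum were split, with 11 of 32 lower and 7 higher (34.4% and 21.9%, next to 21.9% and 18.7% over all genes). HYOU1 and ERP29 changed by -1.15 ± 0.12 and -1.29 ± 0.15, and the oxidase ERO1A, which forms disulphide bonds, by 1.72 ± 0.18. In secretory transport 13 of 55 genes fell and 9 rose (23.6% and 16.4%, near the shares over all genes). Among them were SRP9 of the signal recognition particle (-1.73 ± 0.12) and the coat proteins SEC24A (1.37 ± 0.13) and SEC24D (0.82 ± 0.09).

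Genes of RNA handling were mostly lower too. Among 43 splicing and mRNA processing genes 26 fell and 0 rose (median -0.55), and LSM5, which binds U6 RNA, changed by -1.91 ± 0.15. Of 42 genes of the nuclear pore and of transport through it, 24 fell and 1 rose. The GTPase RAN, which gives transport its direction, had 8040.5, 8544 and 7274 in cycling and 3535, 4651, 4287 and 4345 in contact-inhibited arrays. Its partner RANBP1 fell by 1.38 ± 0.17. Translation factors were divided: 13 of 38 fell and 9 rose (34.2% and 23.7%, next to 21.9% and 18.7% over all genes). EIF5A2 and EIF2S1 were among the lower ones, at -1.57 ± 0.15 and -0.99 ± 0.11, and EEF2K, the kinase that slows elongation, rose by 1.43 ± 0.13.

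**Figure D4:**
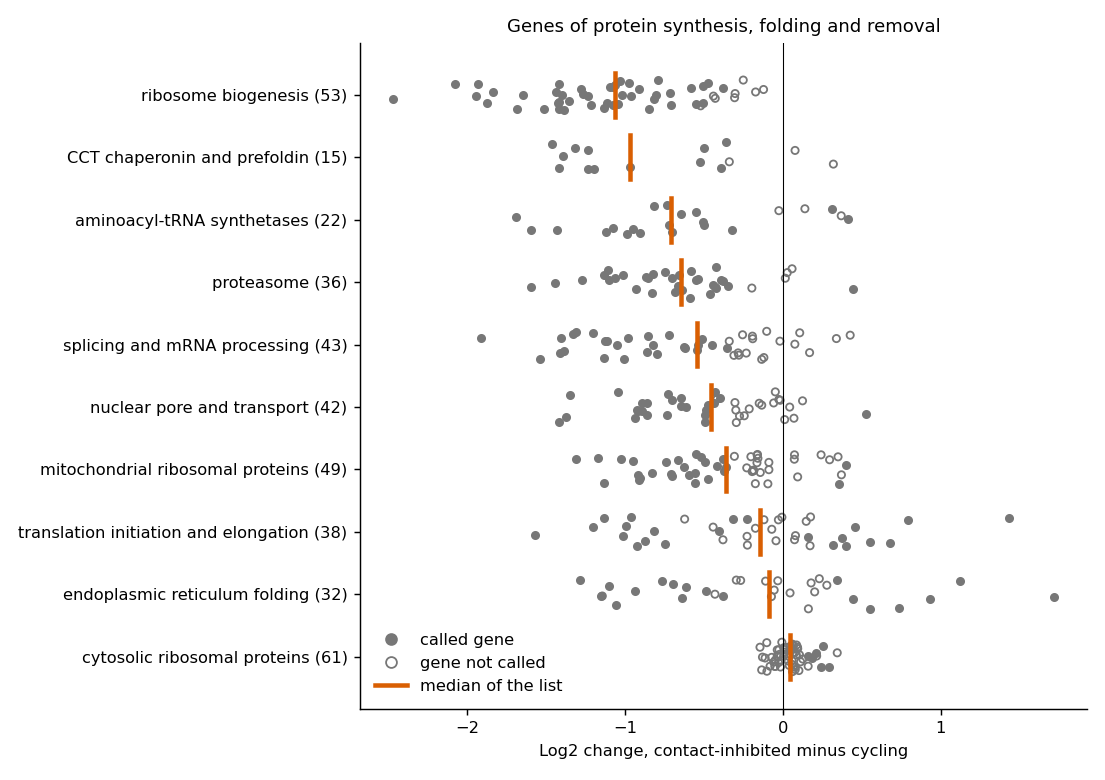
Log2 change of each tested gene in 10 lists of protein synthesis, folding and removal, with the median of each list as a bar. Open circles are genes that were not called. Ribosome biogenesis lies almost wholly below 0, and the cytosolic ribosomal proteins lie in a narrow band around 0.

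Genes of DNA synthesis were mostly lower, from the supply of nucleotides to the replication fork. Of 39 replication genes 28 fell and 0 rose (median -0.97). FEN1, a nuclease that trims Okazaki fragments, had 1364, 1388 and 1453 in cycling and 238, 367, 373 and 439.5 in contact-inhibited arrays. ORC4, a subunit of the origin recognition complex, had 1614, 1712 and 1893 in cycling and 359, 517, 498 and 495 in contact-inhibited arrays. For both, every contact-inhibited array was below every cycling array, as the choice of named genes required. Of 22 enzymes of nucleotide synthesis 14 fell and 2 rose. PPAT, which starts purine synthesis, changed by -2.34 ± 0.10, and TYMS, which makes thymidylate, by -2.15 ± 0.18. Those that rose were PRPS2, which makes the ribose precursor (1.59 ± 0.26), and ATIC, the last enzyme of purine synthesis (0.67 ± 0.10). Mitosis and kinetochore genes were lower in 33 of 48 cases and higher in 0, with the centromere proteins CENPH at -1.69 ± 0.16 and CENPI at -1.12 ± 0.11. DNA repair genes fell in 19 of 34 cases, among them the helicase BLM (-1.38 ± 0.17), and 3 rose, FANCA, WRN and XRCC5. WRN rose by 0.97 ± 0.21, and by 0.63 without cycling replicate 3. XRCC5 had an adjusted p of 0.0572 without cycling replicate 3 and 0.0665 without cycling replicate 1. Of 27 chromatin genes 15 fell, with the lamins LMNB1 and LMNB2 at -1.94 ± 0.23 and -1.70 ± 0.17, and the one that rose was the deacetylase HDAC1 (1.02 ± 0.14).

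The regulators of the G1 phase moved in both directions. Of 16 E2F, RB and partner genes 7 fell and 0 rose. E2F1, the activator of S-phase genes, fell by 1.45 ± 0.19 and RBL1, a relative of RB, fell by 1.51 ± 0.19. Of 18 kinase inhibitors and growth-arrest genes 12 rose and 3 fell (median 0.60). CDKN1B, the inhibitor p27, rose by 0.88 ± 0.12, and KLF9, a transcription factor raised by steroid hormones, by 1.57 ± 0.25. CDKN2B, the inhibitor p15, went the other way, with 1949, 1748 and 1786 in cycling and 186, 204, 179 and 203 in contact-inhibited arrays. Its mean was 5041 ± 113 (SD, n = 3) in serum-starved sparse cells and 2636 ± 74.8 in confluent starved cells, so the contact-inhibited level was the lowest of the 4 groups. CDK6, a G1 kinase, had 234, 319 and 64.2 in cycling and 837, 1051, 784 and 655 in contact-inhibited arrays, a change of 2.15 ± 0.37 with cycling replicate 3 the lowest. Without that replicate the change was 1.53 (adjusted p = 1.10e-04). Of 16 cyclins and their kinases 3 rose and 6 fell. CCND2, a G1 cyclin, rose by 0.65 ± 0.11, and the mitotic kinase CDK1 and the phosphatase CDC25A, which activates such kinases, fell, with changes of -0.95 ± 0.13 and -1.08 ± 0.15. Among 19 p53 targets and apoptosis genes 5 rose and 3 fell, but with centred arrays 3 rose and 6 fell. The first counts were 26.3% and 15.8%, next to 18.7% and 21.9% over all genes. The survival factor BCL2 rose by 0.71 ± 0.18 and the death factor BAK1 fell by 1.18 ± 0.11.

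Energy metabolism genes did not move as a block. Of 26 glycolysis and lactate genes 9 rose and 4 fell (median 0.19). Without cycling replicate 3 the counts were 11 and 2 with a median of 0.12, and the median was 0.08 with centred arrays and 0.33 with all tested probe sets of a gene averaged. ENO2, an enolase best known from neurons and raised by hypoxia in other cells, had 164, 163 and 220.5 in cycling and 1670.4, 2419, 1642 and 1560.5 in contact-inhibited arrays. The lactate exporter SLC16A3 rose by 1.35 ± 0.13 and LDHA by 0.57 ± 0.11, while LDHB, the other lactate dehydrogenase subunit, fell by 1.13 ± 0.11. Of 30 genes of the citric acid cycle 12 fell and 3 rose. The malate dehydrogenases MDH1 and MDH2 fell, with changes of -1.20 ± 0.12 and -0.88 ± 0.11, and malic enzyme ME1 rose by 1.18 ± 0.13. The respiratory chain and ATP synthase showed 21 lower and 3 higher of 54, and CYCS, cytochrome c, fell by 1.60 ± 0.14.

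Genes of the hypoxia response rose in 16 of 30 cases and fell in 5 (median 0.52). PLOD1, a hydroxylase of collagen lysines, had 2768, 3182 and 2724 in cycling and 5929, 7346, 6776 and 6646 in contact-inhibited arrays. BHLHE41, a repressor of the clock family, had 249, 281 and 237 in cycling and 1701, 3269.5, 2778 and 3080.2 in contact-inhibited arrays. In both, all contact-inhibited arrays were above all cycling arrays, as the choice of named genes required. HIF1A, the oxygen-regulated subunit, rose by 1.74 ± 0.21. EPAS1, which codes for the related subunit HIF-2 alpha, fell by 2.27 ± 0.18. Oxygen was not among the measurements, and the labels do not name it. Of 21 genes of carbonic anhydrases and pH control 5 rose and 3 fell, with 3 and 4 after centring. The first counts were 23.8% and 14.3%, next to 18.7% and 21.9% over all genes. CA12, a second carbonic anhydrase of the cell surface, had 22.4, 24.4 and 22.2 in cycling and 586, 643, 526 and 547 in contact-inhibited arrays, and SLC4A2, a bicarbonate exchanger, fell by 1.49 ± 0.31.

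Of 18 genes of lipid carriers and adipocytes 8 rose and 2 fell, and with centred arrays 6 and 3. FABP4, the fatty acid carrier of adipocytes, had 261, 231 and 111 in cycling and 2479.7, 12876, 11125 and 9554 in contact-inhibited arrays. FABP5, a related carrier, had 12.5, 15 and 19.7 in cycling and 20.9, 199.8, 166 and 189 in contact-inhibited arrays, so that replicate 1 lay at the level of the cycling arrays. These low values of FABP5 were under the filter of 22.7. CLU, a secreted chaperone, rose by 2.43 ± 0.19. The nuclear receptor PPARG rose by 0.91 ± 0.26, and by 0.54 without cycling replicate 3. FABP7, the carrier of the developing brain, and APOA1, the main protein of high-density lipoprotein, fell, with changes of -1.39 ± 0.36 and -2.01 ± 0.16. Of the 5 adipocyte markers 2 rose, PPARG and CIDEC, and their summed signal was 397 to 549.6 in cycling and 594 to 952 in contact-inhibited arrays. CIDEC, a protein of lipid droplets, had 91.3, 89.6 and 115 in cycling and 105, 228, 215 and 202 in contact-inhibited arrays, with replicate 1 inside the cycling range. Its adjusted p was 0.0167 with all arrays, 0.0517 without cycling replicate 1 and 0.0525 without cycling replicate 2. The defining markers ADIPOQ and CEBPA had means of 39.4 and 38.3 in cycling and 35.1 and 38.5 in contact-inhibited cells, and neither they nor PLIN1 were called. The part of adipocytes in these values was not tested. Cholesterol synthesis and uptake had 8 lower and 3 higher of 26 (30.8% and 11.5%, next to 21.9% and 18.7% over all genes). FDPS, which makes farnesyl diphosphate, changed by -1.35 ± 0.16 and INSIG1, which holds back the pathway, by 1.20 ± 0.14. Fatty acid synthesis and storage genes were split, 7 higher and 8 lower of 33 (21.2% and 24.2%, near the shares over all genes). LPIN1, a phosphatase of fat synthesis, and PLIN2, which coats lipid droplets, rose by 1.43 ± 0.31 and 1.00 ± 0.26 (PLIN2 by 0.62 without cycling replicate 3). The elongases ELOVL1 and ELOVL5 fell, with changes of -1.01 ± 0.15 and -0.95 ± 0.09. Fatty acid oxidation and peroxisome genes rose in 8 and fell in 5 of 37 cases (21.6% and 13.5%, next to 18.7% and 21.9% over all genes). They rose in 15 cases without contact-inhibited replicate 1 and 5 without cycling replicate 3.

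Genes for the uptake of amino acids and other nutrients, and for the conversion of amino acids, fell more often than they rose. Of 32 transporters of amino acids and other nutrients 15 fell and 2 rose (median -0.53, or -0.15 with all tested probe sets of a gene averaged). SLC39A8, an importer of zinc and manganese, had 468, 559 and 326 in cycling and 70.1, 52.2, 50.6 and 52.4 in contact-inhibited arrays. SLC7A6, a carrier of cationic and neutral amino acids, fell by 1.32 ± 0.14. Of 28 genes of serine and folate metabolism and of the response to amino acids 12 fell and 6 rose. PSAT1 of serine synthesis and MTHFD2 of mitochondrial folate metabolism fell, with changes of -2.12 ± 0.29 and -2.45 ± 0.15, whereas PHGDH, the first enzyme of serine synthesis, rose by 0.83 ± 0.19. Of 45 genes of protection against oxidants 8 rose and 12 fell (7 without cycling replicate 1 or 2). These were 17.8% and 26.7%, next to 18.7% and 21.9% over all genes. GCLM, a subunit of the enzyme that starts glutathione synthesis, fell by 1.52 ± 0.16, while GPX8, a peroxidase of the endoplasmic reticulum, rose by 1.49 ± 0.10.

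Lysosome and autophagy genes were among the lists with the highest median change. Of 58 lysosome and autophagy genes 32 rose and 2 fell, with a median of 0.64 against 0.02 over all genes. LAMP2, a membrane protein of lysosomes, had 302, 344 and 34.4 in cycling and 476, 986, 835 and 677 in contact-inhibited arrays, and its change was 2.03 ± 0.52 with all arrays and 1.12 without cycling replicate 3. CTSB, the protease cathepsin B, had 3497, 3471 and 3564 in cycling and 8617, 8807, 7309 and 7592 in contact-inhibited arrays. ARSB, which removes sulphate from glycosaminoglycans, rose by 1.38 ± 0.13. The groups did not overlap for any of the 3 genes, and for CTSB and ARSB this was a condition for naming. TFEB, the transcription factor of lysosomal genes, rose by 1.16 ± 0.22. MAP1LC3C and ATG7, both of autophagy, were the members that fell (-1.28 ± 0.19 and -0.61 ± 0.16). Of 19 genes of the V-ATPase, the proton pump that acidifies lysosomes, 4 rose and 5 fell (21.1% and 26.3%, near the shares over all genes). Without contact-inhibited replicate 1 these counts were 2 and 6, with centred arrays 2 and 6 and after quantile normalization 5 and 3, so no direction can be given for the pump.

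Fibrillar and associated collagens rose more often than they fell. Of 24 such genes 15 rose and 1 fell (median 0.57). The collagen VI chains, which form beaded filaments around cells, all rose: COL6A1 by 2.11 ± 0.07, COL6A2 by 2.19 ± 0.09 and COL6A3 by 2.06 ± 0.15. COL14A1, a collagen of the fibril surface, had 32.9, 33.5 and 33.2 in cycling and 53.2, 284, 336 and 436 in contact-inhibited arrays. The one gene of this list that fell was COL2A1 on the probe set described above. Enzymes that process collagen rose in 12 of 25 cases and fell in 2. TLL1, a protease that trims procollagen, had 417, 442 and 536 in cycling and 64.9, 85.2, 69.6 and 79.3 in contact-inhibited arrays and fell. Among the alpha subunits of prolyl 4-hydroxylase, P4HA1 and P4HA3 rose by 1.33 ± 0.09 and 1.63 ± 0.24, and P4HA2 fell by 0.97 ± 0.14.

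Other matrix genes parted by family. Of 37 elastic fibre and matricellular genes 17 rose and 6 fell. VTN, the adhesive protein vitronectin, had 8.57, 7.2 and 13.3 in cycling and 222, 154, 136 and 146 in contact-inhibited arrays. It lay under the filter of 22.7 in every cycling array and was tested only through its level in other arrays. SPP1, osteopontin, and THBS4, a thrombospondin, rose by 1.83 ± 0.12 and 2.09 ± 0.14. WISP2, a matricellular protein of the CCN family, had 2097, 2592 and 2676 in cycling and 869.6, 196, 172 and 237 in contact-inhibited arrays. Of 27 basement membrane genes 8 rose and 4 fell (29.6% and 14.8%, next to 18.7% and 21.9% over all genes). Laminin LAMC1 and collagen COL15A1 rose by 0.81 ± 0.10 and 2.52 ± 0.35, whereas both nidogens, which link laminin to collagen IV, fell, with -2.44 ± 0.38 for NID1 and -1.33 ± 0.22 for NID2. COL4A2, a chain of collagen IV, fell by 0.70 ± 0.14. Of 35 proteoglycan and hyaluronan genes 5 rose and 8 fell (14.3% and 22.9%, next to 18.7% and 21.9% over all genes). ACAN, the large proteoglycan of cartilage, had 14.4, 13.3 and 20.6 in cycling and 429, 318, 288 and 308 in contact-inhibited arrays. The link protein HAPLN1 fell by 1.90 ± 0.29 and the hyaluronan receptor CD44 rose by 1.48 ± 0.18. Proteases and their inhibitors were balanced, with 11 higher and 11 lower of 54 (20.4% each way, near the shares over all genes). MMP16, a membrane metalloprotease, and the gelatinase MMP2 rose by 2.42 ± 0.22 and 0.94 ± 0.11, and the gelatinase MMP9 fell by 1.43 ± 0.16.

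Adhesion genes moved in both directions. Of 34 integrin and focal adhesion genes 10 fell and 5 rose (29.4% and 14.7%, next to 21.9% and 18.7% over all genes). Without contact-inhibited replicate 3, 3 rose. ITGB3, the beta subunit of vitronectin receptors, had 1163, 1089 and 1308 in cycling and 418, 154, 113 and 117 in contact-inhibited arrays, while ITGB5, another partner in vitronectin binding, rose by 0.91 ± 0.15. The collagen receptor subunit ITGA11 rose by 1.04 ± 0.12, and vinculin, VCL, which links integrins to actin, fell by 0.50 ± 0.11. Cell junction genes showed 11 lower and 9 higher of 47 tested, of 66 on the array. These shares of 23.4% and 19.1% were near those over all genes. CDH13, a cadherin without a cytoplasmic tail, rose by 1.27 ± 0.13, and CDH3, P-cadherin, fell by 1.00 ± 0.17. GJC3, a connexin, fell by 3.60 ± 0.17, and CTNNB1, beta-catenin, fell by 0.39 ± 0.10.

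Contractile genes were mostly lower. Of 35 genes of the smooth muscle type 20 fell and 4 rose (median -0.46). ACTG2, an actin of smooth muscle, had 9185, 10322 and 8604 in cycling and 1154, 1115, 908 and 792 in contact-inhibited arrays. The LIM-domain proteins FHL2 and FHL1 went opposite ways: FHL2 had 1074, 1047 and 804 in cycling and 28.3, 37.5, 17.9 and 38.2 in contact-inhibited arrays, and FHL1 had 493, 549 and 165 in cycling and 1799, 3397, 2882 and 2685 in contact-inhibited arrays. MYL9, the regulatory light chain of smooth muscle myosin, fell by 1.38 ± 0.08, and the filament protein SYNM rose by 1.38 ± 0.26. Of 48 genes of striated muscle on the array 27 were bright enough to be tested, and 11 of these fell. With the filter set at the median 6 fell, so this count depends on the filter. MYL4, a myosin light chain of embryonic muscle, had 929, 953 and 939.7 in cycling and 9.03, 5.98, 11.9 and 7.13 in contact-inhibited arrays. It lay under the filter of 22.7 in every contact-inhibited array and was tested only through its level in other arrays. The myosin heavy chains MYH15 and MYH1E fell, with changes of -5.11 ± 0.24 and -3.84 ± 0.20. Actin and myosin genes form families of near-identical sequence, and how far their probe sets share signal was not tested. The muscle factors MYOD1, MYOG and MYF5 had means of 33.5, 27.4 and 36.1 in cycling cells and were not called. Actin regulators fell in 19 and rose in 8 of 54 cases.

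The primary cilium, an antenna that cells build when they leave the cycle, had 15 genes higher and 3 lower of 47. These were 31.9% and 6.38% of its genes, next to 18.7% and 21.9% over all tested genes. With centred arrays 10 were higher and 4 lower. In a fit to the 7 compared arrays alone, which gave fewer calls throughout, 8 were higher. The presence of cilia was not measured. AHI1, a protein of the cilium base, had 224, 163 and 298 in cycling and 789.7, 907, 819 and 1132 in contact-inhibited arrays. BBS4, which sorts cargo for the cilium, and TCTN3, of its gate, rose by 1.37 ± 0.15 and 0.85 ± 0.12, and IFT43 fell by 1.28 ± 0.12. Of 15 genes of the Hedgehog pathway, which signals through the cilium, 2 rose and 4 fell. These were 13.3% and 26.7%, next to 18.7% and 21.9% over all tested genes, and the median was 0.06. The coreceptor BOC rose by 1.95 ± 0.18. PTCH1 and HHIP, the receptor and a decoy that are both induced by Hedgehog signals, fell, with changes of -1.22 ± 0.15 and -1.41 ± 0.19. Averaged over its tested probe sets PTCH1 changed by -0.49. GLI1 was too dim to be tested, and the activity of the pathway was not measured.

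Genes of BMP and TGF-beta signalling differed at several points. BMP2, a ligand, had 574, 572 and 507 in cycling and 57.2, 51.3, 44.4 and 54.4 in contact-inhibited arrays. TGFB3 had 4236, 4783 and 6825 in cycling and 1190.2, 966, 810.4 and 845 in contact-inhibited arrays, and BAMBI, a decoy receptor, fell by 2.44 ± 0.20. Of 26 known target genes 10 fell and 1 rose. SMAD6 and DLX5, both raised by BMP, fell, with changes of -1.68 ± 0.14 and -2.20 ± 0.27, and the target that rose was HEY1 (1.77 ± 0.35). The ligand BMP7 and the coreceptor TGFBR3 went up, by 1.57 ± 0.25 and 1.88 ± 0.22. Among 43 ligands, receptors and antagonists 11 rose and 7 fell (25.6% and 16.3%, next to 18.7% and 21.9% over all genes).

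Wnt and Notch genes changed member by member, with 9 higher and 10 lower of 52 in the former list and 4 and 5 of 26 in the latter. The shares, 17.3% and 19.2% for Wnt and 15.4% and 19.2% for Notch, were not above the 18.7% and 21.9% over all genes. DKK4 had 4474, 5655 and 4367 in cycling and 54.6, 41.9, 42.3 and 29.2 in contact-inhibited arrays, a change of -6.39 ± 0.25 (adjusted p = 1.81e-09). NOTUM, an enzyme that inactivates Wnt proteins, fell by 2.10 ± 0.14 and the receptor FZD4 fell by 2.39 ± 0.17. SFRP2, a secreted Wnt-binding protein, rose by 2.14 ± 0.17, with 114, 105 and 91 in cycling and 398, 569.8, 551 and 537 in contact-inhibited arrays. In the Notch pathway LFNG, which adds sugar to the receptor, fell by 2.67 ± 0.18 and the ligand-like DNER fell by 2.38 ± 0.38. RBPJ, the DNA-binding partner of Notch, rose by 1.40 ± 0.15.

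Genes of growth factor signalling were mixed, although serum was present in both groups. Of 45 genes induced by the kinase ERK or early after stimulation 21 fell and 5 rose. EGR1, an early transcription factor, had 4971, 4778 and 4915 in cycling and 1013, 1244, 1204 and 1483 in contact-inhibited arrays. DUSP4, a phosphatase that turns ERK off, fell by 1.73 ± 0.16. ZFP36L1 and ZFP36L2, which promote decay of short-lived mRNAs, rose by 1.32 ± 0.13 and 1.92 ± 0.22. On ETV4, a further target, 1 probe set was called higher and 1 lower. The heparin-binding ligand PTN had 559.8, 560.3 and 684 in cycling and 1836, 3272, 3183 and 3487 in contact-inhibited arrays, and FGF7, which acts on epithelium, rose by 1.42 ± 0.24. The receptors FGFR2 and MERTK fell, with changes of -0.98 ± 0.15 and -1.49 ± 0.20. Of all 57 growth factors and receptors 14 rose and 11 fell, and with centred arrays 9 rose and 12 fell. The first counts were 24.6% and 19.3%, next to 18.7% and 21.9% over all genes. In the insulin and IGF list 9 of 35 genes rose and 3 fell (25.7% and 8.57%, next to 18.7% and 21.9% over all genes). Without cycling replicate 3, 5 rose. IGFBP2 fell by 1.28 ± 0.24 and RICTOR, a subunit of the kinase complex mTORC2, rose by 0.89 ± 0.14.

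The Hippo pathway, the textbook link between crowding and growth, gave no clear direction as a list. Of 33 tested genes 10 rose and 4 fell, without contact-inhibited replicate 1 the counts were 8 and 8, without cycling replicate 3 6 and 4, and with centred arrays 4 and 8. ANKRD1, a YAP target, had 2032, 1779 and 1604 in cycling and 482, 48.4, 38.8 and 52.6 in contact-inhibited arrays, with replicate 1 between the rest of its group and the cycling arrays. The kinase LATS1 rose by 0.48 ± 0.12, but with centred arrays its adjusted p was 0.0628. LATS2 changed by 0.76 ± 0.23, and its adjusted p was 0.051 without contact-inhibited replicate 1 and 0.0918 without cycling replicate 3. AMOTL1, an angiomotin that binds YAP at junctions, rose by 0.84 ± 0.18. Of the 4 members that fell only ANKRD1 is given here. A kinase of the pathway was among the others, so the genes given do not stand for the list.

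Inflammatory mediators moved in both directions. Of 52 cytokine, chemokine and NF-kappaB genes 17 rose and 9 fell (32.7% and 17.3%, next to 18.7% and 21.9% over all genes). NFKBIZ, a nuclear regulator of NF-kappaB, rose by 2.11 ± 0.22 and the cytokine IL15 by 1.79 ± 0.19. The chemokine CXCL14 had 1763, 1812 and 711 in cycling and 7881, 8435, 8367 and 8362 in contact-inhibited arrays. The cytokine LIF fell by 2.88 ± 0.23 and TNFRSF6B, a decoy receptor, fell by 2.48 ± 0.21. Of 48 guidance genes 10 fell and 6 rose, and with centred arrays 17 fell. The first counts were 20.8% and 12.5%, next to 21.9% and 18.7% over all genes. UNC5C, a netrin receptor, had 199, 218 and 238 in cycling and 4.38, 11.1, 13.9 and 18.7 in contact-inhibited arrays. It lay under the filter of 22.7 in every contact-inhibited array and was tested only through its level in other arrays. CRMP1, which acts downstream of semaphorins, fell by 4.43 ± 0.19. Of 42 interferon and antigen presentation genes 9 rose and 9 fell (21.4% each way, near the shares over all genes). Without contact-inhibited replicate 3, contact-inhibited replicate 4 or cycling replicate 2, 5 fell. B2M, the light chain of class I molecules, rose by 0.57 ± 0.10.

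Of 63 genes for factors of body position and limb identity 16 rose and 10 fell (25.4% and 15.9%, next to 18.7% and 21.9% over all genes). LHX9, a factor of limb and gonad development, had 91.6, 139 and 106 in cycling and 469, 773, 808 and 718 in contact-inhibited arrays. HOXD8 rose by 2.77 ± 0.26 and PRRX1, a factor of limb mesenchyme, by 1.20 ± 0.19. SNAI1, which represses epithelial genes, had 2888, 3155 and 2172 in cycling and 321, 314, 393 and 519.7 in contact-inhibited arrays and fell. SOX8 fell by 2.53 ± 0.21. Of 37 clock genes and nuclear receptors 11 rose and 6 fell (3 without cycling replicate 2). The first counts were 29.7% and 16.2%, next to 18.7% and 21.9% over all genes. HLF and BHLHE40, both of them linked to the clock, rose by 1.52 ± 0.14 and 1.07 ± 0.16, and PGR, the progesterone receptor, fell by 2.93 ± 0.13.

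Some genes had a level in contact-inhibited cells that neither growing nor starved cells shared. Called in the same direction against each of the 3 other groups were 314 genes that were higher (2.73% of those tested) and 763 that were lower (6.63%). Over probe sets the shares were 2.51% and 4.77%. These comparisons share the 4 contact-inhibited arrays. The mean log2 level of the W-linked probe sets was 5.98 to 6.66 in the 6 starved arrays, near the 6.28 of contact-inhibited replicate 1 and below the 7.07 to 7.3 of the other contact-inhibited and the cycling arrays, and its part in these counts was not tested beyond the covariate fit, which gave 540 probe sets higher and 1725 lower against 709 and 1348. ACAN, at a mean of 336 in contact-inhibited cells, had 16.1 in cycling, 17 in serum-starved and 14.9 in confluent starved cells. The means of these other groups lay under the filter of 22.7, so ACAN was tested only because its contact-inhibited arrays were bright. How many of the 314 higher genes entered in this way was not counted. PROK2, a secreted peptide, had 743 against 31.1, 18.6 and 40.5, and C1QTNF3, a secreted protein of cartilage and fat, 4842 against 422, 339 and 268. The same direction held in every contact-inhibited array for these genes, which were chosen without overlap with the cycling arrays. On the low side, CITED4, a transcriptional coregulator, had 124 in contact-inhibited cells against 1759 in cycling, 1685 in serum-starved and 1389.8 in confluent starved cells. LRRC32 had 92 against 1666, 1293 and 1127, and UNC5C 12 against 218, 371 and 177. In confluent starved cells each of these 6 genes had a mean nearer to that of cycling than to that of contact-inhibited cells. They were chosen for large differences between contact-inhibited cells and each of the 3 other groups, so this nearness is not a finding.

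At a further set of genes contact-inhibited replicate 1 did not share the level of replicates 2 to 4. Of the 1033 probe sets at which it was at least 2-fold from them, it was higher at 333 and lower at 700. It lay nearer to the cycling mean than to the mean of replicates 2 to 4 at 602 of them. At 622 it lay nearer to the serum-starved mean, and a probe set can count in both. RBP7, a retinol-binding protein, had 490.2, 476 and 413 in cycling and 642, 8723, 8978 and 9202 in contact-inhibited arrays, and its means were 188 in serum-starved and 179 in confluent starved cells. OSTN, a secreted peptide of bone and muscle, had 191, 183 and 189 in cycling and 659, 4936, 4861 and 5509.7 in contact-inhibited arrays. F13A1, the transglutaminase of blood clotting, had 513, 471 and 431 in cycling and 622, 4565, 4492 and 5099 in contact-inhibited arrays. In all 3 genes replicate 1 lay nearer to the cycling arrays than to the other replicates, so the change was 3.30 ± 0.71 for RBP7 with all arrays and 4.24 without replicate 1. NOS1, the neuronal nitric oxide synthase, had 232, 343 and 344 in cycling and 153, 0.05, 0.14 and 3.08 in contact-inhibited arrays, and CCK, a peptide hormone, 726, 992 and 961 in cycling and 364, 48.1, 43.4 and 38.8 in contact-inhibited arrays. These fell with and without replicate 1.

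Several genes were called only without replicate 1. CCL4, a chemokine, had 596, 562 and 602 in cycling and 666, 76.9, 79.8 and 105 in contact-inhibited arrays, and its adjusted p was 0.0582 with all arrays and 0.00447 without replicate 1. CXCL12, the chemokine that retains blood stem cells in the marrow, had 859.9, 878 and 537 in cycling and 1545, 249.9, 226 and 248 in contact-inhibited arrays, with means of 2168 in serum-starved and 1704 in confluent starved cells. FKBP6 had 245, 323 and 314 in cycling and 1238, 104, 87.2 and 90.4 in contact-inhibited arrays. At CXCL12 and FKBP6 replicate 1 lay above the cycling arrays and the other contact-inhibited arrays below them, so no direction can be given for the group. ROBO2, a guidance receptor, and ADHFE1, a mitochondrial dehydrogenase, had 59.4, 297, 259.8 and 314 and 70.2, 440.1, 401 and 452 in contact-inhibited arrays, and replicate 1 was below the cycling arrays of 83.4, 69 and 101 and 137, 139 and 159.7. Whether the level of W-linked genes or another property of replicate 1 takes part in these values was not tested beyond the covariate fit given in the closing section. The genes with the largest changes that lost their call without replicate 1, among them NAPG and DSTYK, had a low value in cycling replicate 3 instead. NAPG had 81.5, 124 and 12.4 in cycling and 153, 177, 161 and 114 in contact-inhibited arrays, a change of 1.18 ± 0.43 with all arrays and 0.50 without cycling replicate 3. DSTYK changed by 1.15 ± 0.41, and by 0.48 without cycling replicate 3.

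**Figure D5:**
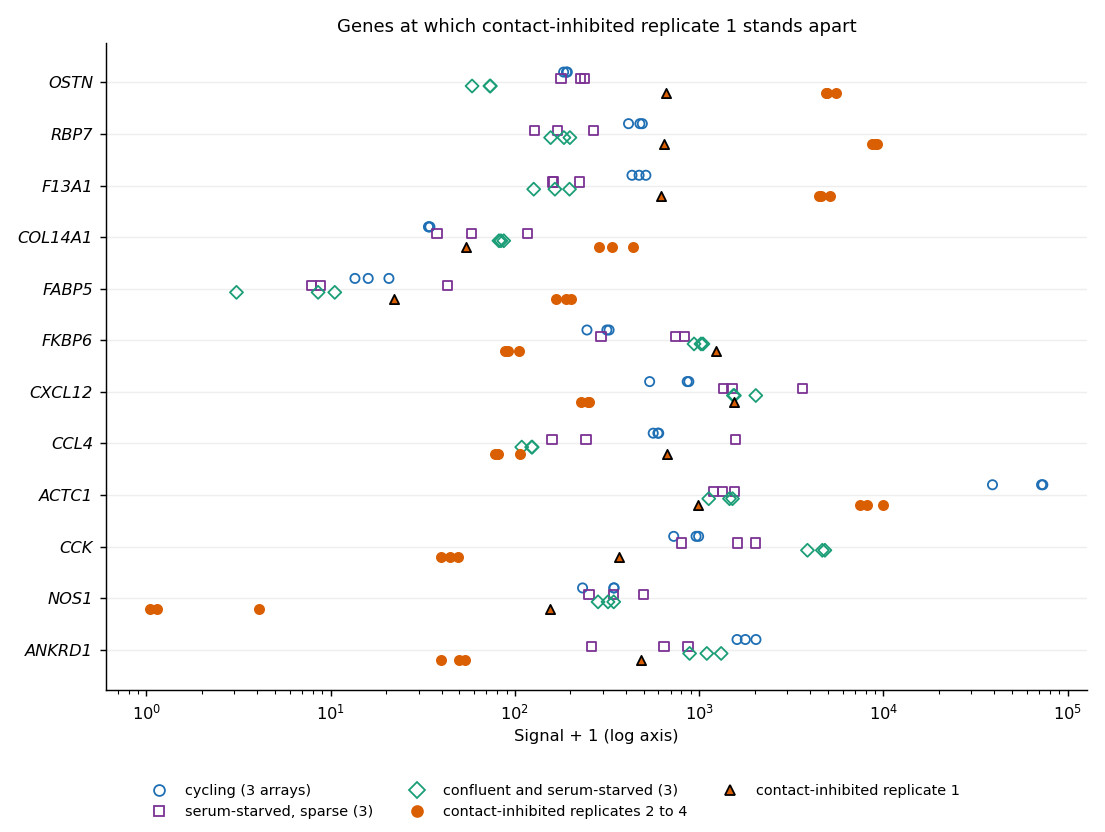
Signal per array on a log axis (with 1 added) in all 4 groups for 12 genes named in the text at which contact-inhibited replicate 1 lay farthest from the other contact-inhibited arrays. Triangles mark contact-inhibited replicate 1, which lies below the filled circles of replicates 2 to 4 for OSTN, RBP7, F13A1, COL14A1, FABP5 and ACTC1 and above them for the other 6 genes. The genes were chosen after their values were seen.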

How the data were processed

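RNA was measured on 13 Affymetrix chicken arrays. Whether the arrays of a group came from separate embryos or from cultures of one pool is not stated. The deposited values are probe set intensities on a linear scale, made by the authors with Affymetrix Expression Console 1.1 and PLIER, per the submitters' processing notes. The sources used here do not state background options or scaling. No depth applies to arrays, and the number of arrays limits the precision.

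Symbols came from the platform annotation, updated through the RefSeq table of assembly GRCg7b: of 37693 chicken probe sets 27182 had 1 symbol, 161 several and 10350 none. Values were set to log2(signal + 16), and 28270 probe sets with a mean at or above the 25th percentile (signal 22.7) were tested. The mean was taken over all 13 arrays, so a gene dim in some groups could enter through a group where it was bright. R 4.3.3 with limma 3.58.1 fitted 4 group means to 13 arrays (9 residual degrees of freedom), with eBayes and a mean trend and Benjamini-Hochberg adjustment over all tested probe sets at 0.05. Tables and plots used Python 3.11.15, pandas 2.3.3, numpy 2.4.6 and matplotlib 3.10.9, and the fit was tested on simulated data. Alternatives were other scalings, offsets, filters, weights and arrays, whose effect the closing section gives.

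The 62 gene lists (2838 entries, 2424 on the array, 2248 tested, 2193 different genes) and the naming rule were chosen with earlier results of these data known. Candidates for naming were taken first from called genes whose groups did not overlap. From these came the 15 highest and 15 lowest changes. Each list also gave its genes of lowest adjusted p, at most 3 in each direction. Further candidates were each list's brightest member, the brightest genes, cell type markers and 8 genes a side that differed from each other group. The last were 8 genes that lost and 8 that gained the call without contact-inhibited replicate 1. Many candidates are not named in the text. Left out were, among others, the brightest members of the replication and ribosome biogenesis lists and a kinase inhibitor that rose. The named genes are thus a choice among the candidates and do not stand for their lists. COL14A1, FABP5, HIF1A, LAMP2, LATS2, PHGDH, TFEB and further members of the POLR1, CCT, LDH, MDH, lamin B and P4HA families were named after their values were seen.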

Additional observations from a re-analysis of the deposited data

Results flagged for a closer look

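Each gene named above was examined for an array far from the other 3 of the contact-inhibited group by Dixon's test at its 95% critical value on log2(signal + 16). Of 246 genes 36 were marked, 33 of them for replicate 1. Chance marks about 1 group in 20, and some of these genes were named because replicate 1 stood apart, so the share is no measure of how often it does so.

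Replicate 1 was the low array for 21 genes. On the scale of signal + 16 it lay at least 2-fold below the lowest of replicates 2 to 4 for ACTC1 at 989, ADHFE1 at 70.2, F13A1 at 622, FABP5 at 20.9, OSTN at 659, RBP7 at 642, ROBO2 at 59.4 and SPON2 at 1571. SPON2 had 3888 to 4622 in the other 3 arrays. Gaps of under 2-fold were found for CA9 at 811, CENPH at 219.5, CIDEC at 105, CXCL14 at 7881, FGFR2 at 675, LMNB1 at 172, NOLC1 at 181, ORC4 at 359, PROK2 at 663, PTN at 1836, SFRP2 at 398, SYNM at 493 and VCL at 3847. The other 3 arrays had 350.0 to 402 at LMNB1, 202 to 228 at CIDEC and 958 to 1079 at SYNM. At LMNB1 and ORC4, which fell in the comparison with cycling cells, replicate 1 was thus the array farthest from the cycling level, and at PTN and SFRP2, which rose, the nearest to it.

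Replicate 1 was the high array for 12 genes. It lay at least 2-fold above the highest of the other 3 for ANKRD1 at 482, CCK at 364, CCL4 at 666, CXCL12 at 1545, FKBP6 at 1238 and NOS1 at 153. With gaps of under 2-fold its high values were GEM at 3121, HIF1A at 6715, KLF9 at 1224, LRRC32 at 130.2, SEC24A at 3969 and SLC39A8 at 70.1. HIF1A, whose product is the oxygen-regulated subunit of the hypoxia factor, lay at 3357 to 3458 in the other 3 arrays, so the rise of this gene was larger in replicate 1 than in the rest of the group.

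The other replicates were marked once each. CENPI was low in replicate 3, at 203 against 222 to 225. ENO2 was high in replicate 2, at 2419 against 1560.5 to 1670.4, and MDH1 was high in replicate 4, at 1745 against 1472 to 1511. All 3 genes kept their call without any one array.

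The table also holds 689 probe sets whose IDs do not mark them as chicken sequences and which entered no comparison. Of these 86 were over the filter of 22.7 in all 7 arrays. At 2 of the 689 every contact-inhibited array lay over the filter and above every cycling array with a difference of at least 2-fold. The higher of their cycling means was 59.3 and the higher of their contact-inhibited means 156.5. What these probe sets detect was not examined.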

How the results depend on the processing

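Counts of calls kept their size within 1.5 times under most alternatives. A fit to the 7 compared arrays alone, without the spread of the starved arrays, gave 3845 probe sets higher and 3597 lower, against 5318 and 4513. Several list counts dropped there by over 1.5 times. Among genes that fell, interferon went from 9 to 4, integrins from 10 to 6 and antioxidants from 12 to 6. Among genes that rose, growth factors went from 14 to 8 and lipid carriers from 8 to 5. An offset of 64 left 864 probe sets at least 2-fold higher and 947 lower, against 1593 and 1474. Array weights gave 1611 probe sets higher and 2475 lower in contact-inhibited cells than in each other group, against 709 and 1348, and the count of higher ones was 1213 without contact-inhibited replicate 1 and cycling replicate 3 together. Leaving out single arrays gave 4183 to 5423 probe sets higher and 3831 to 4587 lower, 1177 to 2123 and 1332 to 1607 of them at least 2-fold, and 476 to 904 higher and 1000 to 1649 lower than in each other group. Between 7936 and 8624 calls were shared with all arrays when an array other than contact-inhibited replicate 1 was left out.

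Groups share replicate numbers 1 to 3. The deviations of same-numbered cycling and contact-inhibited arrays correlated at -0.0812, 0.366 and 0.051, so the numbers were not taken to pair arrays, and with the number as a replicate block 4540 probe sets were higher and 4105 lower.

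With the level of W-linked genes as a covariate 5681 probe sets were higher and 4850 lower, and the standard errors had a median ratio of 0.976 to those without it.

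Of 226 genes named and called, 217 kept call and direction under every alternative tested; CIDEC, DSTYK, EPRS, FN1, LATS1, LATS2, NAPG, PPARG and XRCC5 did not under at least 1, in part because fewer arrays entered the fit. All 28 lists with a median of at least 0.25 in size kept its sign.

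Averaging all tested probe sets of a gene gives a change with no call. It moved the change by over 1.5 times for 40 of the 226 genes, to a smaller size for 36 and a larger one for 4. FN1 changed sign, to 0.0072. Of those with smaller changes, VCL had -0.03, COL2A1 -0.44, FANCA 0.18, ATG7 -0.15, SLC4A2 -0.45, RBL1 -0.56, NID1 -0.91, CDH3 -0.41, PTCH1 -0.49 and ETV4 -0.97, and the collagens COL14A1, COL6A2, COL9A1 and COL4A2 had 1.35, 1.32, 0.43 and -0.29. Larger were COL6A1 at 3.21, ITGA11 at 1.88, SEC24D at 1.51 and ACTB at -0.66. The others kept their direction, among them ACAN at 1.92, CDK6 at 1.01, ID2 at -2.09 and LRRC32 at -2.56. Of the 28 lists the CCT and transporter lists moved by over 1.5 times, to medians of -0.52 and -0.15.

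Of 4666 called genes 132 had another probe set called in the opposite direction. With 3 and 4 arrays per group and probe sets near background understated by the offset, small changes of dim genes were not detectable.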

Other observations

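Of the tested probe sets 7063 carry no gene symbol in the annotation used. They were called higher in contact-inhibited cells in 18.6% and lower in 10.9% of cases, next to 18.8% and 16% over all tested probe sets. Which transcripts they measure was not analysed here.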
